A study of Homo sapiens with 7 samples.

Results

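The level of 10 genes best known from neurons was followed in sorted β-like cells made from H1, an established human embryonic stem cell line. The genes were listed by symbol for their known roles in neurons, with earlier results of these data known, and mapped to Ensembl IDs: STMN1, STMN2, TUBB3, MAP1B, DCX, GAP43, KIF1A, SYP, ELAVL4 and UCHL1. They are 10 of the 66025 gene IDs in the count table, and all 10 were among the 22926 genes that passed the filter on low counts and were tested. Cells were differentiated to stage 6 of a pancreatic protocol, labelled with a fluorescent zinc probe, and insulin-expressing cells were collected by flow cytometry for RNA-seq. The line called iKD2 was selected with puromycin, whether clones were picked is not given in the sources used here, and it carries a lentiviral doxycycline (Dox)-inducible shRNA against METTL14. METTL14 belongs to the methyltransferase complex that places N6-methyladenosine (m6A), a methyl mark, on mRNA. The 3 groups were iKD2 Dox+, given Dox to induce the shRNA (libraries a, b and c, n = 3), iKD2 Dox-, the same line left without Dox (n = 2, b and c), and iSCR Dox+, a line with a non-targeting inducible shRNA given Dox (n = 2, a and b). All 3 groups therefore carry an integrated shRNA vector, the iKD2 groups differ from each other in Dox, and iKD2 Dox+ differs from iSCR Dox+ in the shRNA and in the cell population.

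Endocrine cells of the pancreas and neurons come from different germ layers but share much of their machinery for regulated secretion. Both keep hormone or transmitter in vesicles, move the vesicles along microtubules and release them when calcium enters. In many non-neuronal tissues such genes are held silent by the repressor REST, which is low in mature endocrine cells, and several of the proteins, synaptophysin and UCHL1 (PGP9.5) among them, are used to stain both nerves and endocrine cells.

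The core of the usual m6A consensus is GGACT in DNA letters, so the places where these letters stand in the members' transcripts give the sequence context of a METTL14 experiment. The m6A mark itself was not measured in these libraries. Counted in the principal transcript of each gene (GENCODE 29, GRCh38), GGACT occurred 1.75 times per kb in STMN1, 1.35 in STMN2, 1.11 in KIF1A, 2.002 in SYP, 1.26 in ELAVL4 and 1.71 in UCHL1. These 6 genes lay above the median of 0.935 per kb over 19626 coding genes. MAP1B with 0.748, DCX with 0.873, TUBB3 with 0.565 and GAP43 with no match lay below it. Some of the GGACT sites in coding sequence are shown here, with 8 bases on each side and the GGACT in capitals, for genes whose levels between groups are described further on.

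TUBB3, coding sequence, + strand, GGACT at chr16:89932633-89932637: ggcgactcGGACTtgcagctg
DCX, coding sequence, starting 21 bases before its last base, - strand, GGACT at chrX:111301707-111301711: gatgactcGGACTcgcttggt
SYP, coding sequence, - strand, GGACT at chrX:49194291-49194295: ttagttggGGACTactcctcg
SYP, coding sequence, - strand, GGACT at chrX:49193285-49193289: tgacctcgGGACTcaacacct
UCHL1, coding sequence, + strand, GGACT at chr4:41260752-41260756: gcacaatcGGACTtattcacg

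In its principal transcript, TUBB3 holds this 1 match. DCX holds 8, SYP holds 5 and UCHL1 holds 2. A match describes the letters only.

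The 250 bases before the RefSeq start (GRCh38.p14) were read for 9 of the 10 genes, all but STMN2, for which there was no window. Where a gene had several RefSeq starts, the one nearest the GENCODE principal start was used. Parts of 4 of these promoters are shown because they include the highest GC content among the members and one of the lowest. Each is limited to bases that lie before the RefSeq start and, where it lies farther upstream, the GENCODE principal start, and no annotated exon overlaps them. Those of TUBB3, KIF1A and ELAVL4 lie within the annotated span of their gene, which begins farther upstream. Capitals mark a match to one of 6 motifs searched on both strands.

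TUBB3, + strand, chr16:89923092-89923278: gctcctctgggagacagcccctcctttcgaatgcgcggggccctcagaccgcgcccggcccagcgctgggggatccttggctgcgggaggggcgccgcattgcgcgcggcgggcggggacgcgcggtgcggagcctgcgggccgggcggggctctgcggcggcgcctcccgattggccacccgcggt
SYP, - strand, chrX:49200260-49200443: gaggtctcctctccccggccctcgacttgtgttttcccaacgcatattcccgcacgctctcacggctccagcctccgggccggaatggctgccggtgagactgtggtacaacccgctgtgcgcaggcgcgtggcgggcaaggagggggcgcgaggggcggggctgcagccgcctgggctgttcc
KIF1A, - strand, chr2:240820373-240820469: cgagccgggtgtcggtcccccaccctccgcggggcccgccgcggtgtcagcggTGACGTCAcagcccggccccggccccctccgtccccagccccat
ELAVL4, + strand, chr1:50108670-50108919: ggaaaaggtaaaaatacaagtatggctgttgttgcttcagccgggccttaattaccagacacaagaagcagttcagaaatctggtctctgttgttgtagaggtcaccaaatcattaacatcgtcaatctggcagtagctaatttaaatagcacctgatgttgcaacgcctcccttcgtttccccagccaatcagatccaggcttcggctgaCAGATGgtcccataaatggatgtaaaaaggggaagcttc

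Over the whole 250 bases, GC content was 82% in KIF1A, 78% in TUBB3, 76% in STMN1, 74% in SYP, 70.0% in MAP1B and 64.4% in UCHL1, all above the median of 58.0% over 35116 promoter windows. It was 51.6% in GAP43, 44.8% in ELAVL4 and 42.8% in DCX. The cAMP response element TGACGTCA was found in KIF1A and in 1.65% of all windows. The left part of the REST site, TTCAGCACC, was found in none of the 9 windows and in 0.288% of all. Its right part, GGACAG, was found in 1 (GAP43) and in 17.2% of all. The E-box CAGATG was found in 2 (ELAVL4 and UCHL1) and in 12.2% of all, the E-box CAGCTG in 1 (KIF1A) and in 14.0% of all, and TATAAA in 3 (MAP1B, DCX and UCHL1) and in 10.7% of all. No 2 of these motifs overlap in the 9 windows. GC content and motif counts are over the whole 250 bases. Where the GENCODE principal start lies farther upstream, they include bases after that start. Matches in such bases were CAGCTG in KIF1A, GGACAG in GAP43, and TATAAA in MAP1B and UCHL1.

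Total estimated counts ranged from 14875429 to 20639156 per library, and the 10 genes together took 0.244% to 0.350% of them. METTL14 was at 18.7, 16.4 and 49.1 CPM (counts scaled by TMM and depth) across the libraries labelled a, b and c of iKD2 Dox+, at 39.4 and 22.6 across b and c of iKD2 Dox-, and at 36.1 and 32.2 across a and b of iSCR Dox+. Among all 7, the one labelled iKD2 Dox+ c had the highest level of the targeted transcript, above all 4 control libraries, and so goes against its label. Of the 4 control libraries, iKD2 Dox- c had the lowest level. Whether the label of iKD2 Dox+ c was exchanged with another cannot be told from these values. Fits below that leave out iKD2 Dox+ c keep iKD2 Dox- c as a control, so they do not address an exchange between them. Group names and directions below rest on the labels, and iKD2 Dox+ stands for the 3 libraries so labelled. The difference of METTL14 between iKD2 Dox+ and iKD2 Dox- was -0.14 on the log2 scale (SE 0.63, edgeR adjusted p = 1). No same-group pair held identical values or agreed within sampling noise. The study describes its replicates as independent biological samples, which the files alone do not show, so the p-values measure the spread between these libraries. That spread was wide over all genes tested, with a common biological coefficient of variation of 1.14. For the members, the pooled SD of log2 CPM within groups was 2.78 for GAP43 and between 0.11 (KIF1A) and 0.63 (ELAVL4) for the others.

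The identity of the cells was read from marker lists. INS, the insulin gene, lay between 11370 and 22300 CPM. Of 8 neuron-defining markers, NEUROD6 and CHAT were at 0 in every library, 4 passed the filter, and the highest single value was 26.1 CPM (SLC18A3 in iSCR Dox+ a). The neuron markers summed to 3.71 to 36.1 CPM in iKD2 Dox+, 8.55 to 18.3 in iKD2 Dox- and 15.4 to 27.3 in iSCR Dox+, against 2544 to 3523 CPM for the 10 neuronal-type genes. These sums are not corrected for transcript length. MAP1B and KIF1A, which have long transcripts and means of 1123 and 770 CPM, made up much of the latter. Of 7 glial and Schwann cell markers, 1 (ERBB3) passed the filter, and the other 6 were at or below 6.38 CPM in every library. REST was at 42.4, 32.6 and 107 CPM across a, b and c of iKD2 Dox+, at 51.0 and 41.0 across b and c of iKD2 Dox-, and at 88.4 and 40.2 across a and b of iSCR Dox+. Its groups overlapped.

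Per kb of principal transcript, where levels of different genes can be compared, STMN1 was highest with 109 CPM per kb ± 18.4 (SD over 7 libraries), followed by TUBB3 with 106 ± 30.5, MAP1B with 93.3 ± 15.3, UCHL1 with 92.2 ± 26.4 and KIF1A with 85.7 ± 9.25. STMN2 came next with 61.9 ± 18.2 and SYP with 42.6 ± 19.1. ELAVL4 with 16.5 ± 7.59, DCX with 15.2 ± 5.08 and GAP43 with 10.1 ± 6.52 were lowest. Neighbours in this order overlapped in their values over the 7 libraries, in every case. The order depends on which transcript is assumed: with the union of all exons as the length, MAP1B was first with 88.9 CPM per kb and STMN1, whose exons add up to far more than its principal transcript, was 6th with 29.7. ELAVL4 was then last with 3.77.

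**Figure D1:**
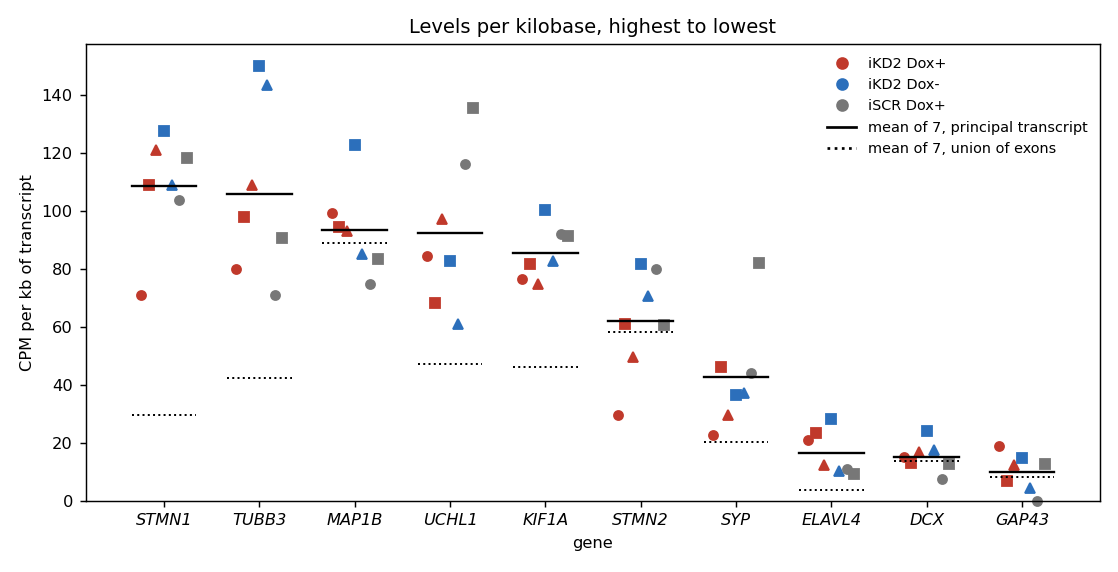
CPM per kb of principal transcript (y axis) for each gene (x axis), with 1 point per library, coloured by group and shaped by library letter (circle a, square b, triangle c). Solid lines are means of 7 libraries and dotted lines the means with the union of exons as the length. STMN1, TUBB3, MAP1B, UCHL1 and KIF1A have solid lines between 85.7 and 109, while ELAVL4, DCX and GAP43 have theirs at or below 16.5.

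In the comparison of the libraries labelled iKD2 Dox+ with those labelled iKD2 Dox-, which asks what induction of the METTL14 shRNA changes within one line and in which Dox itself cannot be told apart from the shRNA, none of the 10 genes passed an edgeR adjusted p of 0.05. Over all genes tested, 9 (0.0393%) did. At an unadjusted p under 0.05 there were 2 members (STMN2 and TUBB3, both lower in iKD2 Dox+), against 3.72% of all genes tested, and 4 members had groups that did not overlap (STMN2, TUBB3, KIF1A and DCX, all lower in iKD2 Dox+), against 20.3% of all genes tested. Without iKD2 Dox+ a, or without iKD2 Dox- b, the count at an unadjusted p under 0.05 was 0, and so it was with the replicate block, while limma voom gave 3. With the library labelled iKD2 Dox+ c left out it was 1, and the difference was -0.75 for STMN2, -0.73 for TUBB3, -0.57 for DCX and -0.21 for KIF1A. Against iSCR Dox+, the line with the non-targeting shRNA, none of the 10 passed the adjusted threshold, which 0.0262% of all genes tested did. There was 1 member (SYP, lower in iKD2 Dox+) at an unadjusted p under 0.05, against 6.72%, and 5 whose groups did not overlap, 3 higher (MAP1B, DCX and ELAVL4) and 2 lower (KIF1A and UCHL1), against 20.5%. Without the library labelled iKD2 Dox+ c, SYP was at -0.88, UCHL1 at -0.73, KIF1A at -0.22, MAP1B at 0.29, DCX at 0.46 and ELAVL4 at 1.12. Between the controls, iKD2 Dox- and iSCR Dox+, none of the 10 passed the adjusted threshold, which 0.0131% of all genes tested did. There were 4 members at an unadjusted p under 0.05, against 4.45%: TUBB3, DCX and MAP1B were higher and UCHL1 lower in iKD2 Dox-. The groups of 5 members did not overlap (these 4 and SYP, lower), against 33.1%. In the order of these comparisons, DESeq2 called 0 members beside 1.19%, 2.71% and 1.34% of the 29776 genes it was run on, and limma voom 0 beside 0.0349%, 0.0174% and 0.00872% of 22926. At an unadjusted p under 0.05 the members numbered 2, 2 and 3 by DESeq2 and 3, 1 and 4 by limma voom. The 3 comparisons share their groups with one another and are not independent. Fewer cells of a type and less RNA per cell cannot be told apart in these bulk libraries.

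**Figure D2:**
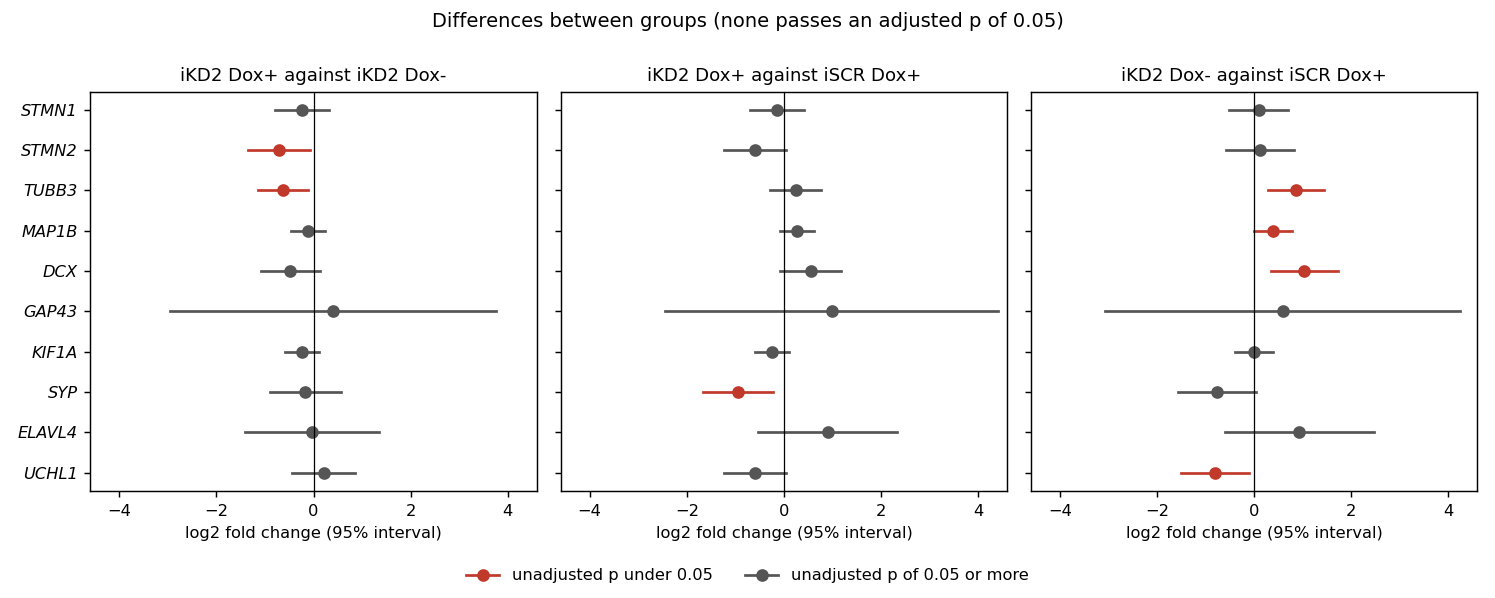
Log2 fold change (x axis) of each gene (y axis) in the 3 comparisons, with the first-named group over the second. Points are edgeR estimates and lines their 95% intervals, red where the unadjusted p is under 0.05, which holds for 2, 1 and 4 genes from left to right. None passes an adjusted p of 0.05, and GAP43 has by far the widest intervals.

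STMN2 and STMN1 encode stathmins, proteins that bind tubulin dimers and favour the shrinking of microtubules. STMN2, found chiefly in growing axons, was at 66.1, 135 and 110.3 CPM across a, b and c of iKD2 Dox+. It was at 182 and 157 across b and c of iKD2 Dox-, and at 178 and 135 across a and b of iSCR Dox+. All 3 libraries labelled iKD2 Dox+ lay below both of iKD2 Dox-, and library a was the lowest, while the ranges met iSCR Dox+ at library b of each. The difference from iKD2 Dox- was -0.71 on the log2 scale (SE 0.31, 95% interval -1.34 to -0.07), or 1.63-fold lower (edgeR adjusted p = 1). It was -0.47 without iKD2 Dox+ a and -0.75 without iKD2 Dox+ c. From iSCR Dox+ STMN2 differed by -0.59 (SE 0.31, 95% interval -1.23 to 0.05, edgeR adjusted p = 0.699), and the controls differed by 0.12 (95% interval -0.59 to 0.83). The study names STMN2 among genes of islet identity that it read in these same libraries, so its direction here is not independent evidence.

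STMN1, which is also expressed in dividing cells, was at 122, 187 and 207 CPM across a, b and c of iKD2 Dox+, at 218 and 187 across b and c of iKD2 Dox-, and at 178 and 202 across a and b of iSCR Dox+. Library iKD2 Dox+ a was the lowest for both stathmins, and the other 6 libraries of STMN1 lay between 178 and 218 CPM. The difference from iKD2 Dox- was -0.24 (95% interval -0.79 to 0.31) and from iSCR Dox+ -0.15 (-0.70 to 0.41), both with groups that overlapped.

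TUBB3 encodes the βIII-tubulin that neurons build into their microtubules. It was at 142, 173 and 192 CPM across a, b and c of iKD2 Dox+, at 266 and 254 across b and c of iKD2 Dox-, and at 126 and 160.1 across a and b of iSCR Dox+. The 2 libraries of iKD2 Dox- stood above the other 5, and those labelled iKD2 Dox+ overlapped iSCR Dox+. TUBB3 was 1.54-fold lower in iKD2 Dox+ than in iKD2 Dox- (log2 difference -0.62, SE 0.25, 95% interval -1.13 to -0.11, edgeR adjusted p = 1). In the controls it was 1.82-fold higher in iKD2 Dox- than in the scramble line (0.86, SE 0.28, 95% interval 0.29 to 1.44, edgeR adjusted p = 0.826). Between iKD2 Dox+ and iSCR Dox+ the difference was 0.24 (95% interval -0.28 to 0.77). A read-through gene on the same strand, AC092143.1, overlaps TUBB3 and was given up to 382 estimated counts. That was 20.6% of the TUBB3 count in iSCR Dox+ a, the library with the lowest TUBB3. The division of reads between these genes is therefore uncertain, and with it the differences of TUBB3 from iSCR Dox+.

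MAP1B, a microtubule-associated protein of growing neurites, had the highest CPM of the 10 in every library, though not the highest level per kb. It was at 1194, 1139 and 1120.0 CPM across a, b and c of iKD2 Dox+, at 1477 and 1026 across b and c of iKD2 Dox-, and at 901 and 1005 across a and b of iSCR Dox+. The 3 libraries labelled iKD2 Dox+ lay close together, between the 2 of iKD2 Dox- and above both of iSCR Dox+. The difference was -0.12 from iKD2 Dox- (95% interval -0.47 to 0.23) and 0.27 from iSCR Dox+ (-0.08 to 0.63). Between the controls it was 0.39 (SE 0.19, 95% interval 0.0045 to 0.78, edgeR adjusted p = 0.826), and 0.11 without iKD2 Dox- b.

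DCX, doublecortin, stabilises microtubules in migrating young neurons. It was at 137, 120 and 153 CPM across a, b and c of iKD2 Dox+, at 221 and 160 across b and c of iKD2 Dox-, and at 69.4 and 117 across a and b of iSCR Dox+. The groups did not overlap in any of the 3 comparisons, in the order iKD2 Dox-, iKD2 Dox+ and iSCR Dox+ from high to low. Of the controls, iKD2 Dox- had 2.05-fold more DCX than iSCR Dox+ (log2 difference 1.03, SE 0.33, 95% interval 0.35 to 1.72, edgeR adjusted p = 0.826). DCX was not called in that fit of 7 libraries. With iSCR Dox+ b left out the difference was 1.46 (edgeR adjusted p = 0.0211), where the 1 remaining iSCR Dox+ library is assumed to vary like the other groups, and with iSCR Dox+ a left out it was 0.71. The difference of iKD2 Dox+ was -0.48 from iKD2 Dox- (SE 0.29, 95% interval -1.09 to 0.13) and 0.55 from iSCR Dox+ (SE 0.30, 95% interval -0.08 to 1.18). The first was -0.24 without iKD2 Dox- b, and the second was 0.23 without iSCR Dox+ a and 0.98 without iSCR Dox+ b.

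GAP43, a growth cone protein of extending axons, was at 32.1, 11.8 and 20.8 CPM across a, b and c of iKD2 Dox+, at 24.9 and 7.68 across b and c of iKD2 Dox-, and at 0 and 21.7 across a and b of iSCR Dox+. With 3 counts as the limit that a count of 0 allows, iSCR Dox+ a could hold up to 0.203 CPM, which covers counting error only. The iSCR Dox+ group thus held both the lowest of the 7 values and one inside the range of iKD2 Dox+, and all 3 groups overlapped. The 3 differences had wide intervals on the log2 scale: from iKD2 Dox- it was 0.40 (-2.95 to 3.76) and from iSCR Dox+ 0.99 (-2.44 to 4.41), with an interval of -3.07 to 4.24 between the controls. When iSCR Dox+ b was left out, GAP43 passed the adjusted threshold against the remaining iSCR Dox+ library for iKD2 Dox+ (adjusted p = 0.000365) and for iKD2 Dox- (adjusted p = 0.000737), that library being the one at 0 counts and assumed to vary like the other groups. DCX and GAP43 were thus 2 members called between the controls, and GAP43 the 1 called between iKD2 Dox+ and iSCR Dox+, beside 1.61% and 1.97% of all genes tested in that fit. Without iSCR Dox+ a, the differences were -0.01 and -0.41.

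**Figure D3:**
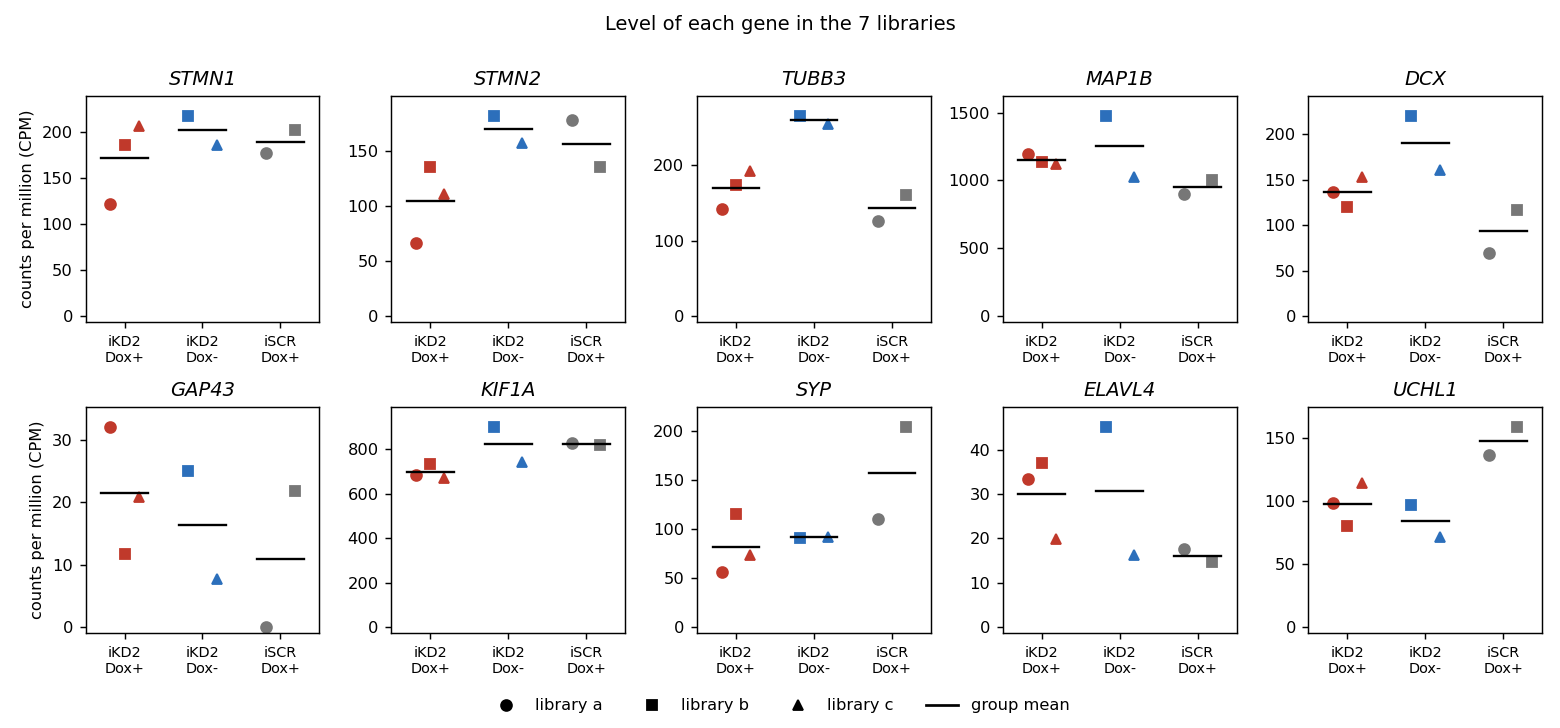
CPM (y axis) in the 3 groups (x axis) for each of the 10 genes, with 1 point per library (circle a, square b, triangle c) and a line at the group mean. The axes differ between genes. The 3 iKD2 Dox+ points lie below both iKD2 Dox- points for STMN2, TUBB3, DCX and KIF1A, and GAP43 has a point at 0 in iSCR Dox+ a.

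KIF1A, a kinesin motor that carries synaptic and dense-core vesicles along axons, was at 687, 735 and 673 CPM across a, b and c of iKD2 Dox+. It was at 901 and 743 across b and c of iKD2 Dox-, and at 829 and 820.4 across a and b of iSCR Dox+. Every library labelled iKD2 Dox+ lay below every control library, though iKD2 Dox+ b and iKD2 Dox- c were nearly level. KIF1A varied least of the 10, with a highest value 1.34 times the lowest, and was 1.18-fold lower in iKD2 Dox+ than in either control (log2 difference -0.24 from each, 95% intervals -0.59 to 0.12 and -0.59 to 0.11). The difference from iKD2 Dox- was -0.0955 with iKD2 Dox- b left out and -0.37 when c was left out instead. The controls differed by -0.0045 (-0.39 to 0.38).

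SYP, synaptophysin, is a membrane protein of synaptic vesicles and of the small vesicles of endocrine cells. It was at 56.7, 115 and 73.9 CPM across a, b and c of iKD2 Dox+, at 91.5 and 92.5 across b and c of iKD2 Dox-, and at 110.2 and 205 across a and b of iSCR Dox+. One library, iSCR Dox+ b, stood well above the other 6, and iKD2 Dox+ b exceeded both libraries of iKD2 Dox-. Compared with iSCR Dox+, SYP in iKD2 Dox+ was 1.92-fold lower (log2 difference -0.94, SE 0.35, 95% interval -1.66 to -0.22, edgeR adjusted p = 0.655), with groups that overlapped. The value rested on iSCR Dox+ b: it was -0.43 without that library and -1.32 (edgeR adjusted p = 0.0473) without iSCR Dox+ a. That last fit has 1 iSCR Dox+ library, assumed to vary like the other groups, and called 0.664% of all genes tested. From iKD2 Dox- SYP differed by -0.17 (-0.90 to 0.56), and the controls differed by -0.78 (SE 0.39, 95% interval -1.58 to 0.03), or -0.26 without iSCR Dox+ b and -1.15 without iSCR Dox+ a.

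ELAVL4 (HuD), which binds AU-rich RNA and steadies many neuronal transcripts, was at 33.3, 37.1 and 19.9 CPM across a, b and c of iKD2 Dox+. It was at 45.1 and 16.3 across b and c of iKD2 Dox-, and at 17.5 and 14.7 across a and b of iSCR Dox+. The iKD2 Dox- libraries spanned more than those labelled iKD2 Dox+, and both iSCR Dox+ values lay below all 3 of the latter. The difference was -0.03 from iKD2 Dox- (95% interval -1.42 to 1.36) and 0.90 from iSCR Dox+ (-0.53 to 2.33). Intervals of this width limit what can be said of ELAVL4 within the iKD2 line.

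UCHL1, a ubiquitin hydrolase abundant in neurons and endocrine cells, was at 98.8, 80.1 and 114 CPM across a, b and c of iKD2 Dox+, at 97.0 and 71.5 across b and c of iKD2 Dox-, and at 136 and 159 across a and b of iSCR Dox+. Both iSCR Dox+ libraries were above all 5 iKD2 libraries, whether or not these had received Dox. The difference was -0.60 between iKD2 Dox+ and iSCR Dox+ (SE 0.31, 95% interval -1.23 to 0.04, edgeR adjusted p = 0.699) and -0.81 between iKD2 Dox- and iSCR Dox+ (SE 0.34, 95% interval -1.52 to -0.10, edgeR adjusted p = 0.826). Within iKD2 it was 0.21 (95% interval -0.43 to 0.86). An antisense gene, UCHL1-AS1, overlaps it and reached at most 0.506% of its count.

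The libraries differed for the list as a whole. Library iKD2 Dox- b was the highest of the 7 for 7 of the 10 genes and had a median centred value of 0.44 on the log2 scale, where each gene is set against its own mean over the 7 libraries. Library iSCR Dox+ a was lowest for 4 genes and iKD2 Dox+ a for 3. Both also had the fewest genes with at least 1 count, 19652 and 20252. Library iKD2 Dox- b had the most, 23747, and the highest total of 20639156 counts. The part of such differences between libraries in the levels of the 10 genes was not tested. The median log2 difference of the 10 genes was -0.20 between iKD2 Dox+ and iKD2 Dox-, with 8 of 10 below 0, beside 0.01 over all genes tested. Leaving out iKD2 Dox- b gave -0.11, beside 0.15 over all genes tested in that fit. Without iKD2 Dox- c it was -0.37, beside 0.13. Against iSCR Dox+ it was 0.05, with 5 on either side of 0, beside 0.08 over all genes. Between the controls it was 0.26, with 7 above 0, beside 0.04, and -0.01 without iKD2 Dox- b, beside 0 over all genes.

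The 10 genes did not move as one set over the 7 libraries. Pearson correlations of log2 CPM between them had a median of 0.15 over 45 pairs, ranged from -0.58 to 0.86, and 27 were positive. TUBB3 and DCX had the highest value with 0.86, followed by ELAVL4 and MAP1B with 0.85 and MAP1B and DCX with 0.83. TUBB3 and UCHL1 had the lowest. These points share libraries and their group structure and are given as a description.

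**Figure D4:**
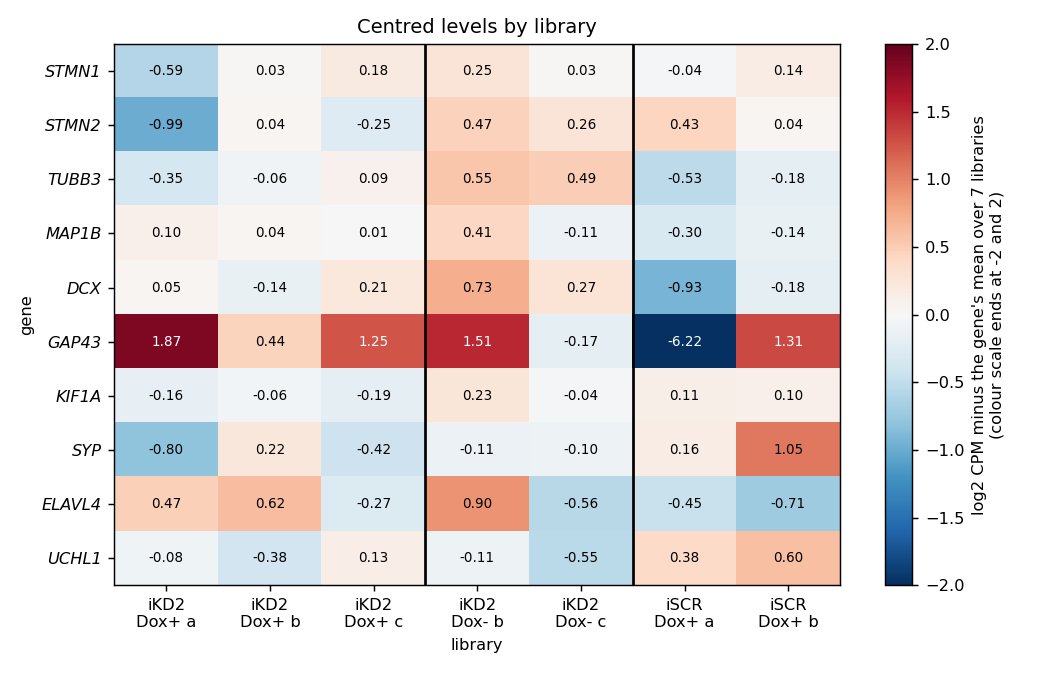
Log2 CPM of each gene (rows) in each library (columns) minus the gene's mean over the 7 libraries, with the value printed in each cell and the colour scale cut at -2 and 2. Column iKD2 Dox- b is positive for 8 genes, and the cell of GAP43 in iSCR Dox+ a (-6.22) reflects a count of 0.

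The genes outside the list whose log2 CPM followed the mean centred value of the 10 most closely over the 7 libraries, among 11748 candidates, were DSCAM (Pearson r 0.975), GTF2H5 (0.970), TMEM38A (0.968), COG8 (0.967) and DDA1 (0.966). DSCAM, a cell adhesion molecule of the nervous system, was at 61.4 CPM in iKD2 Dox- b and 8.26 in iSCR Dox+ a, its highest and lowest values. The mean of the 10 was set in large part by the 0 of GAP43 in iSCR Dox+ a. Without GAP43, PDK4 (0.984), L3MBTL3 (0.9502), ASB1 (0.939), ATP6V1E1 (0.938) and UBE2Q2P1 (0.935) took their places, and none of the first 5 was among them. High values are to be expected when 11748 genes are searched over 7 libraries. No test was made, and both lists are given as a description.

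Other neuronal genes of the same 3 roles were read from lists of 24 cytoskeleton and growth genes, 12 RNA-binding genes and 18 synaptic vesicle genes, all of which were tested. None passed the adjusted threshold in any of the 3 comparisons. Between iKD2 Dox+ and iKD2 Dox-, 20 of the 24 cytoskeleton genes were on the lower side with a median log2 difference of -0.31, 10 of the 12 RNA-binding genes with a median of -0.33, and 13 of the 18 vesicle genes with a median of -0.24. Of all genes tested, 11270 of 22926 were on the lower side. At an unadjusted p under 0.05 there were 0, 1 and 2 genes of these lists, against 3.72% of all genes tested. The 16 pan-endocrine genes had a median of -0.34, with 14 on the lower side, and the lowest adjusted p among them was 0.191. Against iSCR Dox+ the medians were -0.07, 0.08 and -0.21 for the 3 neuronal lists and -0.23 for the pan-endocrine genes. Between the controls they were 0.13, 0.24, -0.01 and 0.01.

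**Figure D5:**
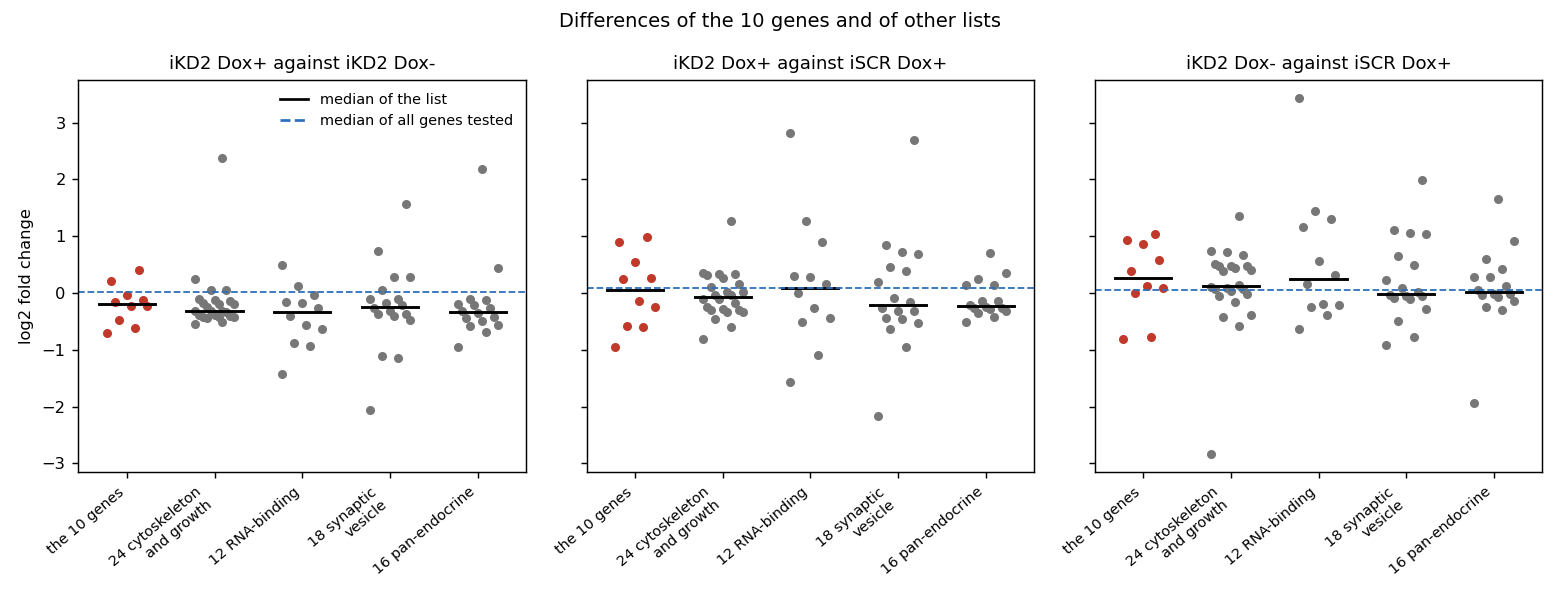
Log2 fold change (y axis) of each tested gene in 5 lists (x axis) for the 3 comparisons. Black lines are list medians and the dashed line is the median of all genes tested. In iKD2 Dox+ against iKD2 Dox- all 5 medians lie between -0.34 and -0.20, below the dashed line at 0.01.

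By mean CPM, uncorrected for transcript length, the leading cytoskeleton genes were KIF5C with 652, TUBA1A with 475 and DPYSL2 (CRMP2) with 423. KIF5C is a kinesin heavy chain, TUBA1A an α-tubulin and DPYSL2 a regulator of axon growth. DPYSL2 was at 374, 357 and 338 CPM across a, b and c of iKD2 Dox+, at 422 and 398 across b and c of iKD2 Dox-, and at 536 and 539 across a and b of iSCR Dox+. Its 3 groups did not overlap, and iKD2 Dox+ differed from iSCR Dox+ by -0.59 (SE 0.19, 95% interval -0.99 to -0.20, edgeR adjusted p = 0.541). TUBA1A differed by -0.39 from iKD2 Dox- (95% interval -0.81 to 0.03) and KIF5C by -0.17 (-0.55 to 0.20).

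Of the RNA-binding genes, CELF3, RBFOX2 and ELAVL3 had the highest mean CPM with 189, 181 and 99.1. CELF3 and RBFOX2 act in splicing. ELAVL3 (HuC), of the same family as ELAVL4, was at 72.3, 63.5 and 54.8 CPM across a, b and c of iKD2 Dox+, at 112 and 120.3 across b and c of iKD2 Dox-, and at 144 and 126 across a and b of iSCR Dox+. All 3 libraries labelled iKD2 Dox+ lay below all 4 control libraries. The difference was -0.87 from iKD2 Dox- (SE 0.30, 95% interval -1.51 to -0.24, edgeR adjusted p = 1) and -1.09 from iSCR Dox+ (SE 0.30, 95% interval -1.72 to -0.46, edgeR adjusted p = 0.42), or -0.782 and -0.997 with the library labelled iKD2 Dox+ c left out. The corresponding values of ELAVL4 over all libraries were -0.03 and 0.90. ELAVL2 (HuB), another member of the family, which was named after its values were seen, was at 32.1, 23.0 and 69.7 CPM across a, b and c of iKD2 Dox+, at 51.3 and 43.0 across b and c of iKD2 Dox-, and at 15.9 and 18.8 across a and b of iSCR Dox+. The library labelled iKD2 Dox+ c was its highest, and both iSCR Dox+ libraries were its lowest. ELAVL2 differed by -0.18 from iKD2 Dox- and by 1.26 from iSCR Dox+ (95% interval 0.02 to 2.499, edgeR adjusted p = 0.699), the latter being 0.66 without iKD2 Dox+ c. RBFOX2 and CELF3 differed from iKD2 Dox- by -0.04 and -0.16.

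Of the vesicle genes, RAB3B, a small GTPase of secretory vesicles, had a mean of 646 CPM, and the calcium sensor SYT7 and its relative SYT13 had 511 and 301. RAB3B was at 469, 655 and 545 CPM across a, b and c of iKD2 Dox+, at 770 and 699 across b and c of iKD2 Dox-, and at 698 and 688 across a and b of iSCR Dox+. It lay lower in all 3 libraries labelled iKD2 Dox+ than in all 4 control libraries (log2 difference -0.40 from iKD2 Dox-, SE 0.18, edgeR adjusted p = 1, and -0.32 from iSCR Dox+, 95% interval -0.70 to 0.07), with -0.39 and -0.31 without iKD2 Dox+ c. SYT7 differed by -0.22 and SYT13 by -0.10 from iKD2 Dox-.

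Markers of other kinds were summed beside these genes. Some of the sums lay apart between groups and others overlapped. The part of these markers in the differences above was not tested. The 10 β-cell markers summed to 12680 to 14800 CPM in iKD2 Dox+, 16060 to 19410 in iKD2 Dox- and 23190 to 24020 in iSCR Dox+. These sums are mostly INS, with group means of 12190, 16010 and 21900 CPM, and 4 of the 10 markers were on the higher side in iKD2 Dox+ in each comparison with a control. INS was the one gene of all lists past the adjusted threshold, with 1.80-fold less in iKD2 Dox+ when set against iSCR Dox+ (log2 difference -0.85, SE 0.10, edgeR adjusted p = 0.000471). The 6 ductal markers summed to 921 to 1001 CPM in iKD2 Dox+, 465 to 576 in iKD2 Dox- and 533 to 649 in iSCR Dox+, with the 3 libraries labelled iKD2 Dox+ above all 4 controls. KRT19 made up much of these sums, with group means of 600, 319 and 349 CPM. All 6 were on the higher side in iKD2 Dox+ in each comparison with a control. The 10 cell cycle genes summed to 558 to 745 CPM in iKD2 Dox+, 370 to 389 in iKD2 Dox- and 285 to 474 in iSCR Dox+. MKI67 made up much of these sums, with group means of 308, 153 and 206 CPM. All 10 were on the higher side in iKD2 Dox+ in each comparison with a control. Among the mesenchymal markers, VIM was on the lower side (-0.41 from iKD2 Dox- and -0.52 from iSCR Dox+) and the other 5 on the higher side. Mesenchymal markers summed to 941 to 1657, 895 to 931 and 1124 to 1382 CPM, markers of other islet cells to 10370 to 14060, 13510 to 17430 and 13620 to 16870 CPM, enterochromaffin markers to 1141 to 1334, 1542 to 1668 and 1127 to 1354 CPM, glial and Schwann markers to 131 to 180, 117 to 141 and 141 to 163 CPM, and pluripotency markers to 10.1 to 57.6, 7.60 to 19.1 and 21.3 to 22.6 CPM in the same order of groups.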

How the data were processed

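The deposited table holds estimated counts for each Ensembl gene, which the authors made with Kallisto and tximport after trimming with fastp from a stranded total-RNA library read as pairs. Versions, build, annotation and strand setting were not given in the sources used here. Kallisto divides shared reads, so overlapping genes are uncertain. Counts were rounded, filtered with filterByExpr, TMM-scaled and fitted in R 4.3.3 by the robust quasi-likelihood method of edgeR 4.0.16, with 3 groups in 1 fit and Benjamini-Hochberg adjustment over 22926 genes. SE is the log2 difference divided by the root of F. CPM is TMM-scaled. Alternatives were other scaling and filters, DESeq2 1.42.0, limma voom 3.58.1, a replicate block, a fit of the 2 groups compared, and each library left out. Members and lists were chosen with earlier results of these data known. Named genes are the members, METTL14, list genes past the adjusted threshold, the 3 highest by mean CPM of each other neuronal list, and the 5 genes with a mean CPM of at least 10 that followed the members' mean most closely. Marker genes named beside them were chosen after their values were seen. The list without GAP43, exon-union lengths and the fit of other neuronal genes without iKD2 Dox+ c were added after seeing the data.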

Additional observations from a re-analysis of the deposited data

How the results depend on the processing

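Depth was 14875429 counts or more per library, so the spread between 2 or 3 libraries per group, not counting error, set the width of most intervals. Of 480 values of 10 genes under the alternatives, 454 kept direction and side of the threshold, 4 passed it and 22 turned direction, 14 of them with a library left out. Of the 30 differences, 20 never turned. The number of members past an adjusted p of 0.05 stayed at 0 under every other scaling, filter and tool, and with a library left out ranged from 0 to 1 against iSCR Dox+ and from 0 to 2 between the controls. Against iSCR Dox+ the fits that called 1 member called 0.664% (without iSCR Dox+ a) and 1.97% (without iSCR Dox+ b) of all genes tested, and the one that called 2 between the controls called 1.61% (without iSCR Dox+ b). The median between the controls ranged from -0.009 to 0.43 with a library left out, while that of all genes tested ranged from 0 to 0.30. The causes were not tested.

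With a library left out, the log2 difference from iKD2 Dox- ranged from -0.50 to 0.0393 for SYP, from -0.21 to 1.48 for GAP43, from -0.59 to 0.88 for ELAVL4 and from -0.36 to 0.16 for MAP1B. From iSCR Dox+ that of iKD2 Dox+ ranged from -0.31 to 0.0511 for STMN1 and from -0.0103 to 11.54 for GAP43, where the upper value is against a library at 0 and is no bound. Between the controls it ranged from -0.0641 to 0.33 for STMN2, -0.0274 to 0.20 for STMN1, -0.15 to 0.13 for KIF1A and -0.50 to 11.15 for GAP43. With limma voom ELAVL4 was at 0.0466 from iKD2 Dox-. KIF1A between the controls, at -0.0045 in the fit reported, was at 0.0094 with upper-quartile factors, 0.0083 with no filter beyond 1 count and 0.0018 with only the 2 groups compared.

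Whether libraries with the same letter were paired cannot be told from the values. The difference of library b from c in log2 CPM had a Pearson correlation of -0.0013 between iKD2 Dox+ and iKD2 Dox-, over 22926 genes. For library a from b it was 0.0069 between iKD2 Dox+ and iSCR Dox+. With so few libraries and a wide spread between them, a low correlation does not show that pairing was absent. With the replicate block 0 members passed the adjusted threshold in any comparison, SYP was at 0.0083 from iKD2 Dox-, and between the controls STMN2 was at -0.048, STMN1 at -0.16 and KIF1A at 0.0474.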
